A study of Homo sapiens with 17 samples.

Results

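Of 20046 protein-coding genes counted in senescent human fibroblasts, 53 met a rule that combined induction in senescence with loss after knockdown of SMARCA4, the gene of a SWI/SNF ATPase. The rule used counts per 1000000 gene counts (CPM) averaged over libraries: at least 1 CPM in senescent cells, at least 4 times the level of non-senescent cells after adding 0.05 CPM to the latter, and at most 0.5 of the senescent level once SMARCA4 was depleted. Collagen genes and VGF, CCK, SCN4B, MRGPRX4 and MEGF10 were left out by name. The first 2 conditions alone held for 319 genes. Of these, 56 also met the knockdown condition, and removing VGF, COL10A1 and COL19A1 gave the 53 members. The 53 are therefore 16.6% of the senescence-induced genes, and the values and calls of both comparisons that chose them describe that choice and are no test of it.

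The libraries came from IMR90 ER:RAS cells, IMR90 lung fibroblasts infected with a retrovirus for an ER:RAS fusion, in which oncogenic RASG12V stays inactive until 4-hydroxytamoxifen (4OHT) binds its receptor part. Cells took up siRNA a day ahead of treatment, and RNA was taken on day 7. The groups were DMSO with a non-targeting siRNA (DMSO siNT, n = 5), 4OHT with a non-targeting siRNA (4OHT siNT, n = 6) and 4OHT with an siRNA to SMARCA4 (4OHT siSMARCA4, n = 6). Each siRNA carries the number 2 or 4 in its label, and each library a tag ending in V or VM, letters that the labels leave unexplained. All cells, DMSO controls included, carry the ER:RAS construct, and knockdown was made in 4OHT only, so its effect in non-senescent cells was not measured. Tag V marks 2 of the DMSO siNT and 3 of the siSMARCA4 libraries and none of those of 4OHT siNT. The labels do not say that libraries are separate cultures, so p-values measure the spread between libraries, which may be technical. In bulk RNA, fewer cells that express a gene and less RNA per cell cannot be told apart.

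SWI/SNF complexes use ATP to slide or evict nucleosomes, and SMARCA4 (BRG1) is one of their alternative motors. They act mostly at enhancers, where they open chromatin for sequence-specific factors of a cell type or a signal. Oncogenic RAS in fibroblasts first drives proliferation and then a stable arrest, senescence, with wide remodelling of chromatin and secretion of cytokines, chemokines and proteases, the senescence-associated secretory phenotype (SASP). Genes that belong to other lineages can also appear in senescent fibroblasts. The members are described here by role, in groups set after they were known, which were not compared with the other induced genes.

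SMARCA4 itself was at 210 ± 17.4 CPM (SD, n = 5) in DMSO siNT, 263 ± 10.6 CPM (SD, n = 6) in 4OHT siNT and 89 ± 22.5 CPM (SD, n = 6) in 4OHT siSMARCA4. The 6 knockdown libraries, 69.1 to 128 CPM, all lay below the lowest of the other 11, 180 CPM, and the difference from 4OHT siNT was -1.59 log2 units (SE 0.13, edgeR adjusted p = 6.1e-07). Gene counts per library ranged from 38559660 to 67759411. Fibroblast markers were abundant in all groups, with sums of 29426 to 37806 CPM in DMSO siNT, 17812 to 26877 CPM in 4OHT siNT and 9583 to 16825 CPM in siSMARCA4 over 10 markers, each of which reached 1 CPM in some library. Sums for 6 leukocyte markers stayed between 0.122 and 0.493 CPM over all libraries and those for 7 epithelial markers between 0.347 and 1.69 CPM, with the basal keratins KRT5 and KRT14 at 0. The 5 endothelial markers summed to 3.49 to 11.5 CPM in DMSO siNT, 9.41 to 14.2 CPM in 4OHT siNT and 6.85 to 10.7 CPM in siSMARCA4, with PECAM1 averaging 0.0156, 0.920 and 0.345 CPM, VWF 1.18, 3.69 and 2.63 CPM, and CDH5 0, 0.0404 and 0.0397 CPM in these groups. The 6 neuron markers summed to 3.33 to 5.66 CPM in DMSO siNT, 10.4 to 20.4 in 4OHT siNT and 3.22 to 4.37 in siSMARCA4. NEFL, which is also a member, made up most of the 4OHT siNT value, while STMN2 was at 0 and RBFOX3 at 0.0847 CPM there. SNAP25, the largest part of the DMSO siNT sum, averaged 2.26 CPM in DMSO siNT, 0.243 CPM in 4OHT siNT and 0.281 CPM in siSMARCA4. Whether other cells contributed to the members' counts was not tested.

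**Figure D1:**
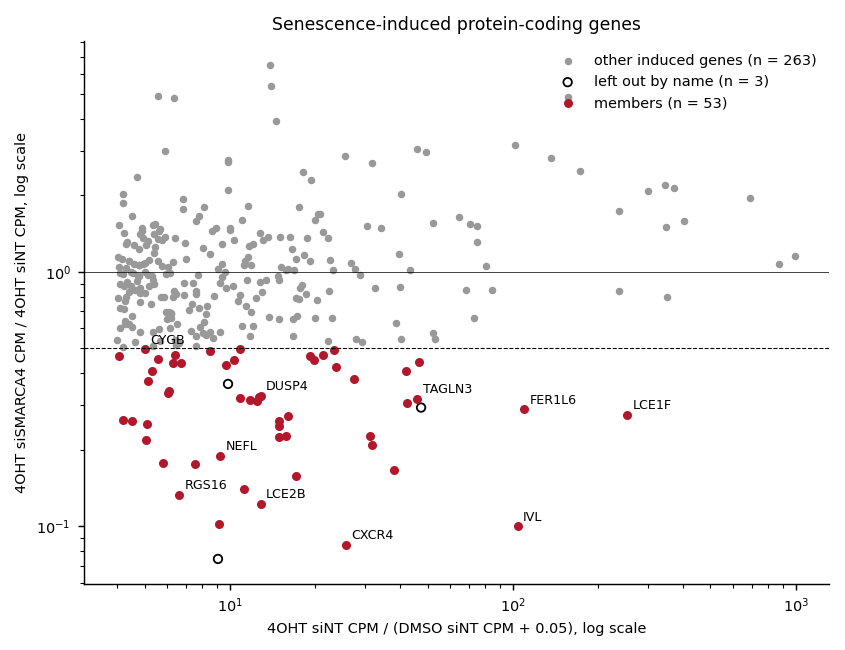
Senescence-induced protein-coding genes (n = 319). The horizontal axis gives the 4OHT siNT level over the DMSO siNT level plus 0.05 CPM and the vertical axis the siSMARCA4 level over the 4OHT siNT level, both on log scales. Each point is a gene, the dashed line is 0.5, and the 53 members fill the range from 0.0845 to 0.497.

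Most senescence-induced genes stayed within 0.5 to 2 times their level at this partial knockdown, which left 33.8% of SMARCA4. Over the 319 induced genes the median ratio of siSMARCA4 to 4OHT siNT was 0.895, 238 lay between 0.5 and 2, and 25 were at 2 or above. Among the members the ratio of 4OHT siNT to DMSO siNT plus 0.05 CPM ran from 4.07 to 254 (median 12.4), and it was at least 10 for 32. The level left after knockdown ran from 8.45% to 49.7% of 4OHT siNT (median 31.4%), with 17 members under 0.25 of it. In the VM libraries alone, the only tag that 4OHT siNT has, the rule chose 93 genes, 50 of them members, and with 0.5 CPM added to DMSO siNT it chose 31, all of them members. Levels were low in most: the 4OHT siNT mean had a median of 3.99 CPM, 14 members reached 10 CPM and 15 were under 2 CPM. In DMSO siNT the median was 0.213 CPM and 30 were under 0.25 CPM. Their counts summed over the 5 DMSO libraries were never below 6.

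All 53 members passed the filter on low counts. In the fit of all 17 libraries (edgeR quasi-likelihood, adjusted p under 0.05) 53 were called higher in 4OHT siNT than in DMSO siNT, where 27.2% of the 19473 genes tested were, and 52 lower in siSMARCA4 than in 4OHT siNT, where 13.2% were. ITGAX was the exception. The rule used these same contrasts, so the counts describe the choice. The 4OHT siNT and DMSO siNT libraries did not overlap for any member, where 15.9% of all genes had every 4OHT siNT library above every DMSO siNT library. The siSMARCA4 and 4OHT siNT libraries did not overlap for 46, where 6.13% of all genes had every siSMARCA4 library below. These counts too come from the contrasts that the rule used. On the side of the knockdown limit, ARHGAP25, CYGB and CADPS were just inside, at 49.7%, 49.6% and 49.4% of 4OHT siNT, and TMEM154, ARRDC4 and TMEM132B just outside at 50.5%, 51.3% and 51.3%. On the side of the induction limit, ALPK3, CHI3L1 and HSD17B2 were inside at 4.07, 4.19 and 4.49 times, and ENSG00000284987, DKK2 and PMEL outside at 3.94, 3.88 and 3.83 times.

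**Figure D2:**
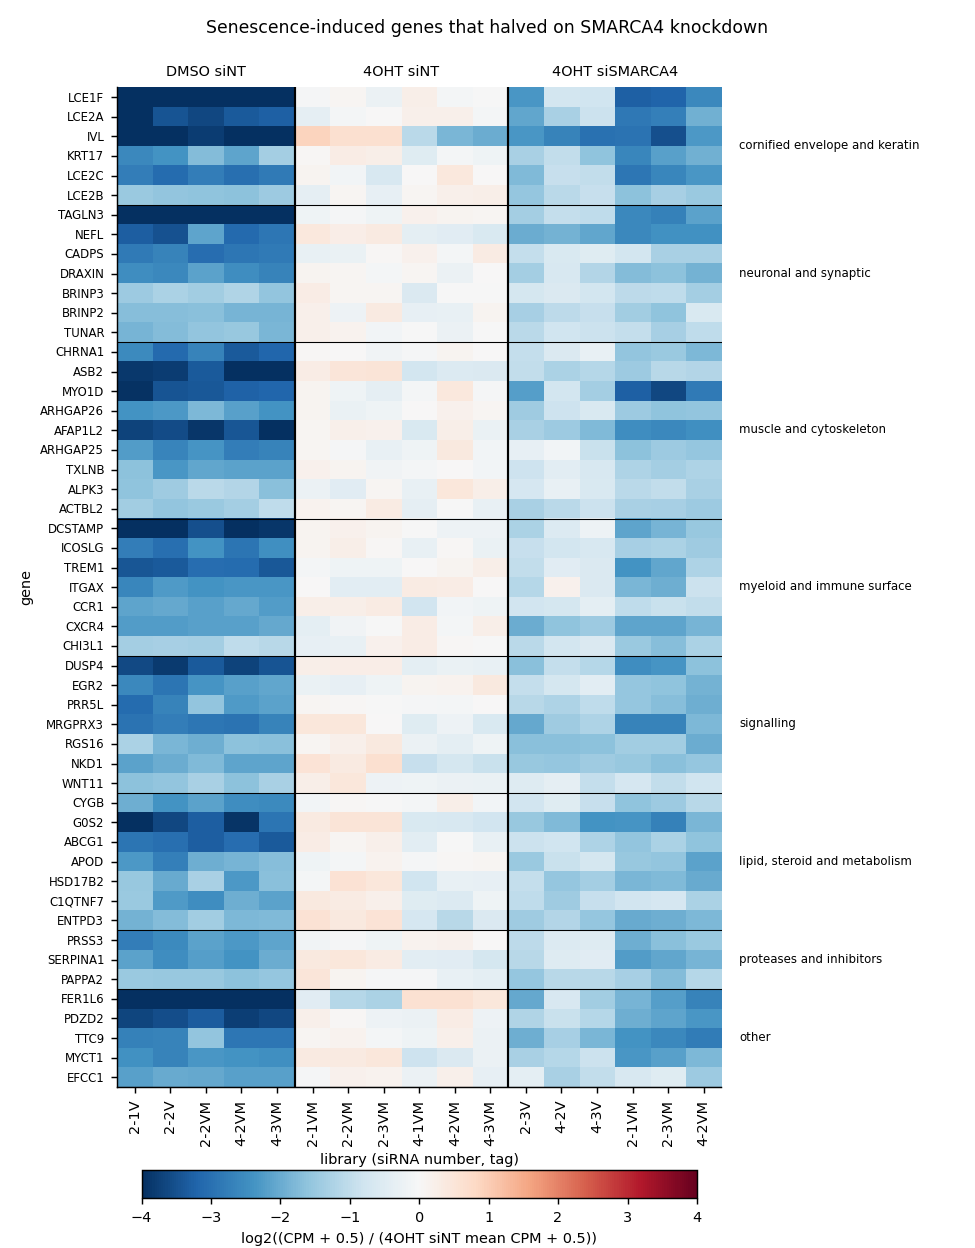
Members (rows, grouped by role) in 17 libraries (columns, siRNA number and tag). Colour gives log2 of CPM plus 0.5 over the 4OHT siNT mean CPM plus 0.5, saturating at -4 and 4. DMSO libraries are blue throughout, and within siSMARCA4 the 3 V libraries are paler than the 3 VM libraries for most genes.

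The cornified envelope group held 6 members. Late cornified envelope proteins and involucrin are cross-linked beneath the membrane of terminally differentiating keratinocytes, and their genes lie together in the epidermal differentiation complex. LCE1F was at 0.0374, 0.0438, 0.0186, 0.0406 and 0 CPM in the DMSO siNT libraries, at 16.8 to 23.6 (median 19.5) in 4OHT siNT and at 1.61 to 11.6 (median 3.22) in siSMARCA4. Its ratio of 254 to DMSO siNT plus 0.05 CPM was the highest of the members and is set largely by the added 0.05 CPM, and its 3 groups did not overlap. LCE2A was at 0.580, 1.07, 0.891, 1.18 and 1.29 CPM in DMSO siNT, at 13.1 to 19.6 (median 16.5) in 4OHT siNT and at 1.87 to 9.13 (median 3.82) in siSMARCA4. IVL, involucrin, was at 0, 0, 0.130, 0.0203 and 0 CPM in DMSO siNT, at 1.75 to 16 (median 8.47) in 4OHT siNT and at 0.279 to 1.28 (median 0.776) in siSMARCA4. IVL formed 2 sets within 4OHT siNT, 13.3 to 16 CPM with number 2 and 1.75 to 3.69 CPM with number 4, yet the lowest of these was above the highest knockdown library. LCE2C, LCE2B and KRT17, a keratin of hair follicles and injured skin, averaged 3.68, 1.07 and 5.39 CPM in 4OHT siNT and 20.9%, 12.2% and 25.1% of that in siSMARCA4. LCE2A, LCE2B and LCE2C are related copies of one family, and KRT17 resembles its pseudogenes and KRT16, so reads may have been shared among them in counting.

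The 5 genes of the complex lie on the plus strand of chromosome 1 (GRCh38, GENCODE 44): LCE2C at chr1:152675279-152676569, LCE2B at chr1:152686123-152687397, LCE2A at chr1:152698345-152699442, LCE1F at chr1:152775140-152777024 and IVL at chr1:152908546-152911886. Of 16 protein-coding genes from LCE2C to IVL, none of the other 11 reached 1 CPM, and the highest was LCE7A at 0.229 CPM in 4OHT siNT. LCE1E, LCE7A and KPRP were at or above 0.1 CPM in 4OHT siNT, and each was higher there than in either other group. Outside that span LCE3D, named here after its values had been seen, was at 0.629 CPM in 4OHT siNT and 0.127 CPM in siSMARCA4, with a log2 difference of -2.28 (SE 0.48, edgeR adjusted p = 0.0040), and had 0 counts in DMSO siNT. The promoters of 4 of the 5 are shown, chosen because they hold TATAAA together with GGAATG or TGANTCA. The window of LCE1F, the most induced of the 5, held none of the motifs searched and is not shown. Each is a window of 300 bases over the RefSeq gene start (GRCh38.p14, plus strand), LCE2C at chr1:152675029-152675328, LCE2B at chr1:152685873-152686172, LCE2A at chr1:152698095-152698394 and IVL at chr1:152908296-152908595. Capitals mark TATAAA and GGAATG (the TEAD motif searched) in the LCE2 genes, and TGANTCA (the AP-1 motif) and TATAAA in IVL. The E-box CACGTG, at -87 in LCE2A and -104 in LCE2B, is left in lower case.
LCE2C: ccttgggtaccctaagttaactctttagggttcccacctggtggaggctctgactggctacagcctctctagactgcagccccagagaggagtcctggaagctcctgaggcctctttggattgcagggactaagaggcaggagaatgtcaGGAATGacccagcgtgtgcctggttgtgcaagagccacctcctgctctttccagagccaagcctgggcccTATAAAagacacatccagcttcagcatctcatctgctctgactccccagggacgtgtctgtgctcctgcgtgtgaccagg
LCE2B: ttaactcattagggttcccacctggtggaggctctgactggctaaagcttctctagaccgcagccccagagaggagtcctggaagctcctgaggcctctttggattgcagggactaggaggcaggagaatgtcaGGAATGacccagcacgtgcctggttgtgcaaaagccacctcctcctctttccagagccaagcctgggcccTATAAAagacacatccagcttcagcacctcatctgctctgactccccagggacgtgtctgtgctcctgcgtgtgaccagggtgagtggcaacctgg
LCE2A: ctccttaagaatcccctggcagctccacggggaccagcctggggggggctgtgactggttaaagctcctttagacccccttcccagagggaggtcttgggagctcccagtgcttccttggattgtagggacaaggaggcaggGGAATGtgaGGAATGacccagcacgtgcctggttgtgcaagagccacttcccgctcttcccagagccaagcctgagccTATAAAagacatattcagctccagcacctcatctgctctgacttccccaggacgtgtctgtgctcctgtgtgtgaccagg
IVL: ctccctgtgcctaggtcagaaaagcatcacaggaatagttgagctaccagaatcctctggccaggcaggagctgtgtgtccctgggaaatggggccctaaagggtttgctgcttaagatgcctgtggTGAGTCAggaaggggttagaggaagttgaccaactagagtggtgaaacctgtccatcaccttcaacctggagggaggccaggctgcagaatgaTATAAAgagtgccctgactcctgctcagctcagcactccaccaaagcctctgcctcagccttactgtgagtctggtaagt

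TATAAA was found in 4 of the 5, at -30 in LCE2A, LCE2C and IVL and at -46 in LCE2B counted from the RefSeq start. The LCE2B and LCE2C windows were 96.5% identical over 284 bases without gaps after a shift of 16 bases. At the best single shift without gaps, LCE2A was 61.8% identical to LCE2B and 58.2% to LCE2C. Such values understate likeness where a base was inserted or deleted. The GGAATG nearer the start lay at -99 in LCE2A and at -100 in LCE2C, with TATAAA at -30 in both, so no single shift aligns both motifs. GGAATG occurred once in LCE2B and LCE2C and at 2 places in LCE2A. The IVL window holds TGAGTCA at -123. Matches are letters found in these windows only.

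The neuronal group held 8 members. TAGLN3, a calponin-like protein of neurons, was at 0.917, 1.01, 1.28, 0.994 and 1.58 CPM in DMSO siNT, at 48.7 to 62.2 (median 56.1) in 4OHT siNT and at 8.07 to 28.2 (median 16.7) in siSMARCA4. Its 3 groups did not overlap, with a log2 difference of 5.68 (SE 0.36) between 4OHT siNT and DMSO siNT and of -1.68 (SE 0.27) between siSMARCA4 and 4OHT siNT. NEFL, the neurofilament light chain, was at 1.01, 0.833, 2.97, 1.24 and 1.52 CPM in DMSO siNT, at 9.41 to 19.7 (median 14.2) in 4OHT siNT and at 2.00 to 3.54 (median 2.66) in siSMARCA4. The knockdown libraries of NEFL overlapped DMSO siNT, and 18.9% of its 4OHT siNT level was left. CADPS, needed for dense-core vesicle release, averaged 3.99 CPM in 4OHT siNT and kept 49.4% on knockdown. DRAXIN, a secreted axon guidance protein, BRINP2, BRINP3 and TUNAR averaged 3.58, 1.33, 1.35 and 1.32 CPM in 4OHT siNT and kept 31.1%, 26.0%, 37.2% and 31.4%.

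The muscle and cytoskeleton group held 10 members. CHRNA1, the alpha subunit of the muscle acetylcholine receptor, was at 4.47, 2.89, 4.1, 2.35 and 2.78 CPM in DMSO siNT, at 26.1 to 31.3 (median 29.1) in 4OHT siNT and at 7.91 to 23.4 (median 12.4) in siSMARCA4. ASB2, which targets filamins for degradation, was at 0.655, 0.701, 1.15, 0.426 and 0.256 CPM in DMSO siNT, at 9.58 to 23.3 (median 15.4) in 4OHT siNT and at 5.60 to 7.90 (median 7.01) in siSMARCA4. ASB2 in the knockdown stayed within a narrow range, and the groups did not overlap. MYO1D, a single-headed class I myosin, was at 0.393, 0.767, 0.817, 0.974 and 1.06 CPM in DMSO siNT, at 10.3 to 18.2 (median 12.9) in 4OHT siNT and at 0.617 to 7.87 (median 2.01) in siSMARCA4. AFAP1L2, an adaptor on actin filaments, was at 0.243, 0.307, 0.149, 0.406 and 0.119 CPM in DMSO siNT, at 5.89 to 10.9 (median 10.1) in 4OHT siNT and at 1.12 to 3.48 (median 1.80) in siSMARCA4. For both, the lowest 4OHT siNT library was above the highest knockdown library. The muscle genes TXLNB and ALPK3 averaged 3.84 and 1.81 CPM in 4OHT siNT and kept 47.3% and 46.7%. ARHGAP26 and ARHGAP25 averaged 10.9 and 4.44 CPM and kept 40.9% and 49.7%. ACTBL2, an actin copy whose reads may be shared with ACTB, averaged 1.32 CPM and kept 21.9%. The 5 general muscle markers summed to 1.05 to 2.12 CPM in DMSO siNT and 0.0529 to 0.473 CPM in 4OHT siNT, and MYOG was at 0 throughout.

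**Figure D3:**
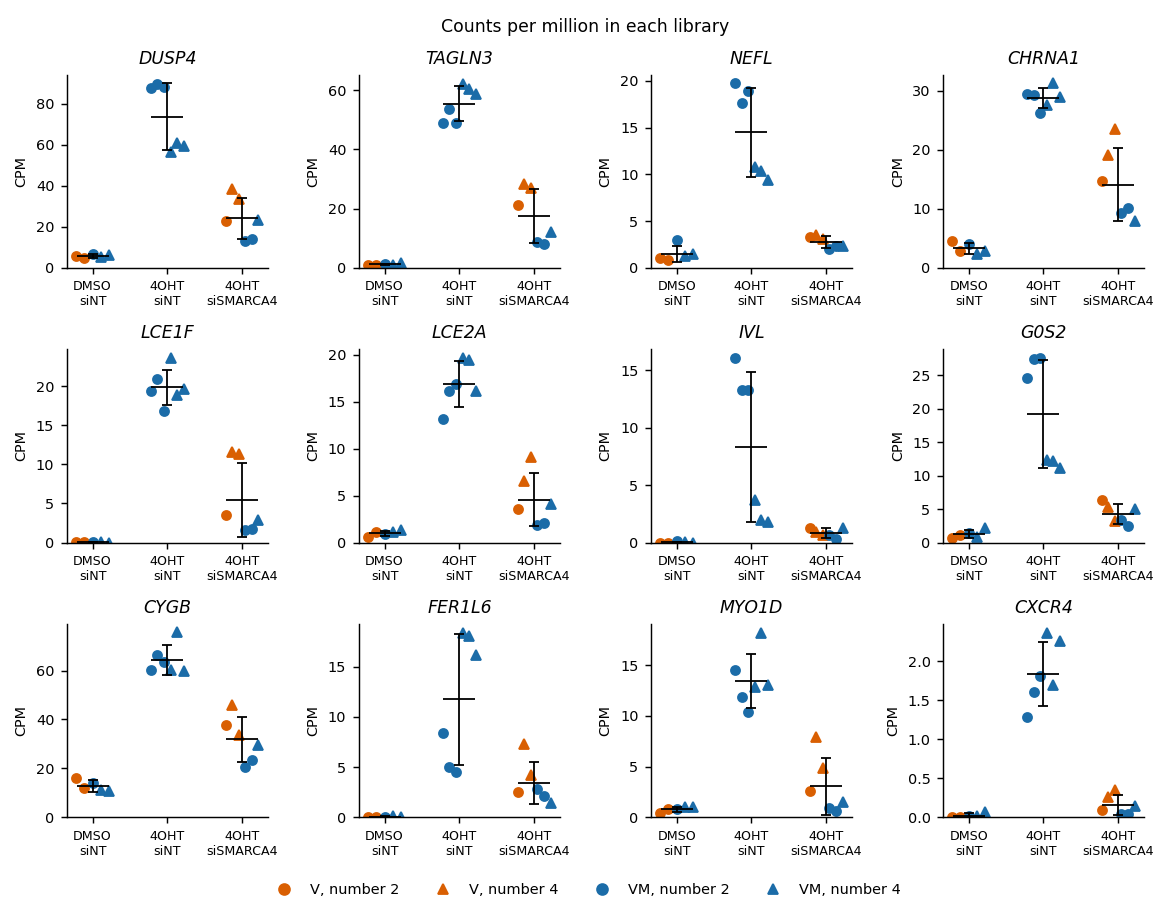
CPM of 12 members in each library, on linear axes that start at 0. Circles are siRNA number 2 and triangles number 4, orange is V and blue VM, and black bars give the mean with SD. Within siSMARCA4 the orange points lie above the blue points for TAGLN3, LCE1F and MYO1D, and within 4OHT siNT the circles lie above the triangles for IVL and G0S2 and below them for FER1L6.

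The myeloid and immune surface group held 7 members. DCSTAMP, required for fusion of osteoclasts and macrophages, was at 0.0561, 0.0877, 0.353, 0.0811 and 0.170 CPM in DMSO siNT, at 8.03 to 10.5 (median 9.63) in 4OHT siNT and at 1.77 to 7.98 (median 3.27) in siSMARCA4. Its groups did not overlap, though the highest knockdown library lay next to the lowest 4OHT siNT one. CXCR4, the receptor of the chemokine CXCL12, was at 0, 0, 0.0186, 0.0203 and 0.0681 CPM in DMSO siNT, at 1.29 to 2.36 (median 1.76) in 4OHT siNT and at 0.0398 to 0.350 (median 0.118) in siSMARCA4. At 8.45% of 4OHT siNT it kept the least of the members. TREM1, a receptor that amplifies inflammation in myeloid cells, ICOSLG, the T cell costimulatory ligand, ITGAX (CD11c), and CCR1, a receptor of CC chemokines, averaged 4.88, 6.39, 2.54 and 1.84 CPM in 4OHT siNT and kept 40.6%, 45.2%, 46.6% and 47.2%. CHI3L1, a secreted chitinase-like protein, averaged 1.25 CPM and kept 26.2%. The pan-leukocyte gene PTPRC was at 0.0552 CPM in 4OHT siNT, and CD14 at 0.201 CPM.

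The signalling group held 7 members. DUSP4, a nuclear phosphatase of MAP kinases, had the highest mean CPM of the members in 4OHT siNT. It was at 5.54, 4.71, 6.78, 5.21 and 6.25 CPM in DMSO siNT, at 56.6 to 89.7 (median 74.4) in 4OHT siNT and at 12.9 to 38.3 (median 23.1) in siSMARCA4. The groups did not overlap, and the log2 difference on knockdown was -1.64 (SE 0.23). RGS16, which turns off G protein alpha subunits, averaged 0.213 CPM in DMSO siNT, 1.74 CPM in 4OHT siNT and 0.232 CPM in siSMARCA4. NKD1, an inhibitor of Wnt signalling, averaged 1.72 CPM in 4OHT siNT and kept 15.7%, and the ligand WNT11 averaged 1.05 CPM and kept 43.2%. EGR2, a zinc finger factor induced by growth signals, averaged 8.64 CPM and kept 43.9%, and an unnamed lncRNA overlaps it on the same strand at 0.621 CPM. PRR5L, a partner of mTORC2, averaged 7.73 CPM and kept 34.1%. MRGPRX3, a sensory receptor with close copies, averaged 3.33 CPM and kept 16.7%.

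The lipid and metabolism group held 7 members. CYGB, a haem protein of fibroblasts and stellate cells, was at 16.1, 12, 14.1, 11.1 and 10.6 CPM in DMSO siNT, at 59.8 to 75.8 (median 61.7) in 4OHT siNT and at 20.6 to 45.9 (median 31.7) in siSMARCA4. It had the highest DMSO level of the members. G0S2, an inhibitor of triglyceride lipase, was at 0.693, 1.10, 1.49, 0.811 and 2.11 CPM in DMSO siNT, at 11.1 to 27.5 (median 18.5) in 4OHT siNT and at 2.51 to 6.41 (median 4.17) in siSMARCA4. Neither gene's 4OHT siNT libraries overlapped the knockdown ones. The cholesterol exporter ABCG1, the lipid carrier APOD, HSD17B2, which oxidises sex steroids, and the secreted C1QTNF7 averaged 4.96, 4.41, 3.74 and 3.69 CPM in 4OHT siNT and kept 38.0%, 33.5%, 25.8% and 43.9%. ENTPD3, an ectonucleotidase, averaged 1.51 CPM and kept 10.2%.

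The proteases and their inhibitors were PRSS3, SERPINA1 and PAPPA2. PRSS3, the trypsin mesotrypsin, was at 2.68, 3.18, 4.40, 3.83 and 4.41 CPM in DMSO siNT, at 18.6 to 23.5 (median 20.6) in 4OHT siNT and at 5.01 to 14.6 (median 8.51) in siSMARCA4. Its reads may be shared with other trypsins. SERPINA1, the inhibitor of neutrophil elastase, averaged 2.55 CPM and kept 32.4%, and PAPPA2, which cleaves insulin-like growth factor binding proteins, averaged 1.30 CPM and kept 17.6%. Of the remaining members, FER1L6, a ferlin, was at 0.0561, 0, 0.0557, 0.122 and 0.0511 CPM in DMSO siNT, at 4.54 to 18.3 (median 12.2) in 4OHT siNT and at 1.40 to 7.29 (median 2.67) in siSMARCA4. The knockdown libraries of FER1L6 overlapped those of 4OHT siNT. PDZD2, TTC9, MYCT1 and EFCC1 averaged 6.83, 3.82, 3.10 and 1.85 CPM in 4OHT siNT and kept 30.4%, 14.0%, 24.8% and 45.0%. Per kilobase of exon, the levels in 4OHT siNT ran from 0.0992 CPM for NKD1 to 32.3 CPM for TAGLN3, with LCE2A at 27.6, LCE1F at 27.3, CYGB at 23.3 and G0S2 at 21.9.

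Members were counted in gene lists, where 16.6% of all induced genes were members, and no list was tested against that share. In the list of keratins and epidermal barrier genes, 6 of the 43 tested were among the 319 induced genes, and all 6 were members. Over the whole list 14 were called higher and 19 lower in 4OHT siNT than in DMSO siNT (27.2% and 27.3% of all genes tested), and 1 higher and 17 lower in siSMARCA4 than in 4OHT siNT (11.1% and 13.2%). Its median log2 difference on knockdown was -0.48, against -0.013 for all genes. These values include the 6 members, which were chosen for that difference, and without them 8 were called higher and 19 lower in 4OHT siNT, 1 higher and 11 lower on knockdown, and the median was -0.36 over 37 genes. The list was set by name patterns and holds S100 genes and, by its letters only, DSCC1. Among 36 SASP factors 27 were induced and none was a member. Of these 36, 30 were called higher in 4OHT siNT, with 14 higher and 5 lower on knockdown, and 9 of the 27 were at least 2 times as high after knockdown. Among 58 cytokines and chemokines 20 were induced, none was a member and 7 were at least 2 times as high after knockdown. G protein-coupled receptors gave 3 members of 11 induced genes (CCR1, CXCR4 and MRGPRX3), a list of muscle and cytoskeleton genes that differs from the role group above 3 of 5 (TAGLN3, NEFL and MYO1D), proteases 2 of 15, kinase pathway feedback genes 2 of 8, and lipid, steroid and retinoid enzymes 2 of 11. Ion channels, cell adhesion genes, axon guidance genes, growth factors, protease inhibitors and the AP-1 to RUNX factor families each gave 1 of 10, 4, 3, 13, 11 and 4. Solute carriers, peptide hormones, extracellular matrix genes without collagens, homeobox and related factors, and interferon response genes gave 0 of 6, 5, 5, 8 and 1. COL10A1, COL19A1 and VGF, which met the limits but were left out by name, belong to none of these lists.

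To ask whether the pattern held in libraries that did not choose the genes, the rule was applied to the libraries of one siRNA number and the result tested in those of the other. The 9 libraries of number 2 chose 83 genes, of which 49 are members. In the 8 libraries of number 4, 79 of the 83 had a lower value on knockdown. The knockdown condition of the rule was met there by 39 of the 83. The median log2 difference was -0.96, against -0.034 for all genes tested. In the number 2 libraries that chose these genes it was -1.74, so the change was smaller in the libraries held out. Of the 83, 27, or 32.5%, were called lower with number 4 (edgeR, adjusted p under 0.05), compared with 2.50% of all genes. Of the 27 genes, 24 are members. NEFL had the smallest adjusted p, with a log2 difference of -1.83 (SE 0.19, edgeR adjusted p = 0.0028), followed by CXCR4 at -3.09 (SE 0.36, adjusted p = 0.0062) and RGS16 at -3.10 (SE 0.38, adjusted p = 0.0063). The count of 27 rested on few libraries: it was 3, 3 and 7 without 4OHT siNT 4-1VM, 4-2VM or 4-3VM, and 15 without siSMARCA4 4-3V.

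The 8 libraries of number 4 chose 51 genes, of which 33 are members. In the libraries of number 2, 49 of 51 had a lower value on knockdown, and 40 of the 51 met the knockdown condition. The median log2 difference was -1.96, against 0.035 for all genes. In the number 4 libraries that chose these genes it was -1.40. Of the 51, 40, or 78.4%, were called lower with number 2, compared with 11.8% of all genes. Of the 40 genes called lower, 32 are members. LCE1F had a log2 difference of -3.02 (SE 0.27, edgeR adjusted p = 0.00012) and CXCR4 of -4.66 (SE 0.43, adjusted p = 0.00013). PMEL, the melanosome matrix protein that missed membership, was at -3.22 (SE 0.19, adjusted p = 1.7e-05). Both siRNA numbers chose 29 genes, 34.9% of the first list and 56.9% of the second. All 29 are members, which nearly follows from the rule, since it averages the same libraries. Of the 29, 16 were called lower in both tests, as were 1.82% of the 19242 genes tested with both numbers. The libraries of each test had also chosen these 29, so this count is a description and no held-out test. Among the 16 were AFAP1L2, ARHGAP26, C1QTNF7, CXCR4, FER1L6, G0S2, HSD17B2, LCE2A, NEFL, PAPPA2, PRR5L, RGS16, TAGLN3 and TTC9.

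**Figure D4:**
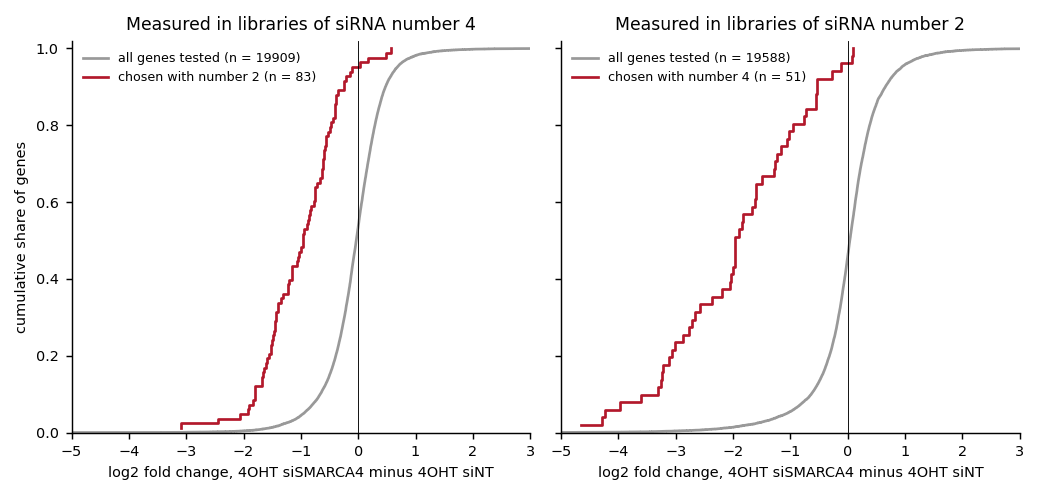
Cumulative share of genes by log2 difference between siSMARCA4 and 4OHT siNT, in the libraries of one siRNA number for genes chosen with the other (red) and for all genes tested (grey). The red lines lie left of the grey ones, with medians of -0.96 (left) and -1.96 (right).

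Induction held in nearly all of the same genes. Of the 83, 81 were called higher in 4OHT siNT than in DMSO siNT with number 4 (21.5% of all genes), with a median log2 difference of 3.34, and of the 51, 49 were called higher with number 2 (25.7% of all genes), with a median of 3.58. Knockdown did not bring most of them to the DMSO level. In siSMARCA4, 67 of the 83 were still called higher than in DMSO siNT with number 4 (18.7% of all genes) and 1 lower (20%), and 33 of the 51 were called higher with number 2 (28.2%) and 2 lower (28.3%). The genes called lower were PARM1, PMEL and MAP3K9, none of them members.

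Across all 17 libraries the members likewise lay between the 2 other groups. The siSMARCA4 mean was above the DMSO siNT mean for every member, 45 were called higher than in DMSO siNT (27.4% of all genes), and the libraries did not overlap for 32, where 14.7% of all genes had every siSMARCA4 library above every DMSO siNT library. These comparisons share libraries with the rule and are descriptions. The ratio of siSMARCA4 to DMSO siNT plus 0.05 CPM was under 2 for 13 members, between 2 and 4 for 17 and at least 4 for 23. LCE1F, at 69.9, FER1L6, at 31.7, DCSTAMP, at 20.7, TREM1, at 17.1, and TAGLN3, at 14.6, stayed farthest above the DMSO level. RGS16, at 0.883, ENTPD3, at 0.934, CHI3L1, at 1.10, and ACTBL2, at 1.10, were among the closest to it. The 8 members not called included HSD17B2, KRT17, CHI3L1, TTC9, RGS16, ENTPD3 and ACTBL2.

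The members were then compared between the siRNA numbers. In 4OHT siNT, 4 members differed between the non-targeting numbers, as did 4.76% of all genes: ASB2 averaged 22.1 CPM with number 2 and 10.4 CPM with number 4 (log2 difference 1.04, SE 0.17, edgeR adjusted p = 0.0068), IVL 14.2 and 2.48 CPM (2.48, SE 0.46, adjusted p = 0.011), NKD1 2.70 and 0.746 CPM (1.81, SE 0.36, adjusted p = 0.014) and FER1L6 5.98 and 17.5 CPM (-1.59, SE 0.40, adjusted p = 0.032). The count was 1, 0 and 0 without 4OHT siNT 4-1VM, 4-2VM or 2-3VM. G0S2, at 26.5 and 11.9 CPM, did not pass (edgeR adjusted p = 0.057). An unadjusted edgeR p under 0.05 was found for 12 of the 53, and for 22.4% of all genes, so as a set the members were near the share of all genes. The labels do not say that the siNT and siSMARCA4 siRNAs of the same number are matched. The share left after knockdown was read within each number because of these siNT differences. Its median was 23.9% with number 2 and 39.2% with number 4, and 51 and 38 of the 53 were at or under 50%. The difference between the 2 knockdown changes also holds the difference between the non-targeting numbers. It was negative, that is a deeper change with number 2, for 47 of 53, with a median of -0.91 log2 against -0.0029 for all genes. It was called for DUSP4, 1 of 53 compared with 1.04% of all genes, and 21 members had an unadjusted p under 0.05 (15.5% of all genes). DUSP4 averaged 88.6 and 16.6 CPM in 4OHT siNT and siSMARCA4 with number 2 and 59.1 and 31.6 CPM with number 4 (difference of the log2 changes -1.48, SE 0.30, edgeR adjusted p = 0.030). The call was lost without any 1 of 4OHT siNT 4-1VM, 2-2VM, 4-2VM or 2-3VM or siSMARCA4 2-1VM, 2-3VM, 4-2V or 4-3V, and the count was 2, 7 and 9 without 4OHT siNT 2-1VM, siSMARCA4 2-3V or siSMARCA4 4-2VM. Compared directly between the siSMARCA4 libraries of the 2 numbers, DUSP4 differed by -0.94 log2 (SE 0.21, edgeR adjusted p = 0.072). SMARCA4 itself gave a difference of the knockdown changes of -0.044 (edgeR adjusted p = 0.95). Number 2 has 1 V library of 3 in siSMARCA4 and number 4 has 2 of 3, so tag and number partly coincide.

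Within siSMARCA4 the members separated by tag. This comparison was added after their values had been seen. The median member stood at 17.5% to 19.7% of its 4OHT siNT mean in the 3 VM libraries and at 34.7%, 46.5% and 43.5% in the V libraries 2-3V, 4-2V and 4-3V. With condition and siRNA number in the fit, 50 of 53 were higher in V, the median log2 difference was 1.03 against 0.014 for all genes, and 26 were called higher in V compared with 3.08% of all genes. None was called lower, and 38 had an unadjusted p under 0.05 in either direction, as did 18.2% of all genes. In 33 members all 3 V libraries were above all 3 VM libraries, as in 10.3% of all genes. TAGLN3 averaged 25.5 ± 3.81 CPM (SD, n = 3) in V and 9.69 ± 2.22 CPM (SD, n = 3) in VM, a log2 difference of 1.28 (SE 0.11, edgeR adjusted p = 0.00013). MYO1D averaged 5.10 and 1.01 CPM (log2 difference 1.95, SE 0.28, adjusted p = 0.0019). Members with little difference included ASB2 at 7.14 and 6.59 CPM (0.16, SE 0.14), NKD1 at 0.292 and 0.25 CPM (0.22, SE 0.38) and IVL at 0.932 and 0.737 CPM (0.34, SE 0.46). The 3 with a negative log2 difference were BRINP2 (-0.19, SE 0.38), C1QTNF7 (-0.094, SE 0.31) and PAPPA2 (-0.029, SE 0.45). The count of 26 was 3 without siSMARCA4 4-2VM and 17 without 2-3V.

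SMARCA4 moved with the tag. It averaged 105 CPM in the V and 73.4 CPM in the VM libraries of siSMARCA4, a log2 difference of 0.56 (SE 0.13, edgeR adjusted p = 0.026), and stood at 39.2%, 48.4% and 31.5% of 4OHT siNT in 2-3V, 4-2V and 4-3V and at 26.2% to 30.2% in the VM libraries. Its part in the members' difference was not tested. Because all 4OHT siNT libraries are VM, the comparison of like tags uses the 3 VM knockdown libraries: there the median member kept 19.9%, and all 53 were at or under 50%. Against the 3 V libraries the median was 42.5%, with 37 at or under 50%. The rule averaged these same knockdown libraries, so both counts describe the choice and are no test of it. In DMSO siNT 5 members were called lower in V (NEFL, PRR5L, TTC9 and DCSTAMP among them), as were 1.62% of all genes. That comparison rests on 1 VM library of number 2, 2-2VM, which also stood apart for IVL and TTC9, so it gives no direction for the tag. The count was 2 without DMSO siNT 2-1V.

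**Figure D5:**
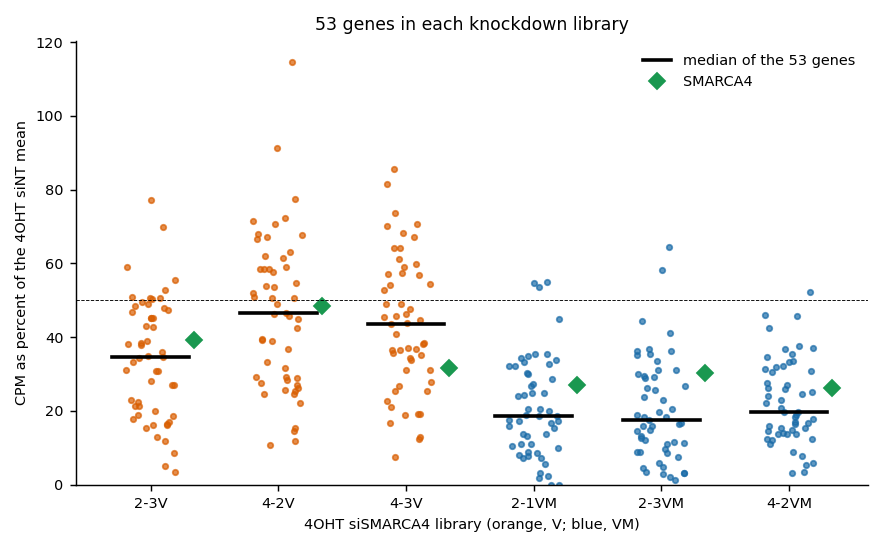
Each of the 53 members (dots) and SMARCA4 (green diamonds) in the 6 siSMARCA4 libraries, as percent of the 4OHT siNT mean on a linear axis. Black lines are medians, the dashed line is 50%, orange is V and blue VM. Medians are 17.5% to 19.7% in VM and 34.7% to 46.5% in V libraries.

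The members were compared with the other 263 induced genes, the 3 left out by name aside, on features that the rule did not use. They lay on many chromosomes, with 12 on chromosome 1 and 6 on chromosome 3. Outside the epidermal cluster, the pairs within 1 megabase were BRINP2 with PAPPA2, 325357 bases apart on chromosome 1, and ASB2 with SERPINA1, 400008 bases apart on chromosome 14. Exonic length had a median of 4273 bases, against 4241 for the other induced genes and 5395 for the 12329 protein-coding genes at or above 1 CPM in 4OHT siNT. The span of the gene had a median of 33451 bases, against 30487 and 34651. Levels, which the rule did use, were lower in the members: the median of the DMSO siNT means was 0.213 CPM, against 1.35 CPM for the other induced genes, and that of the 4OHT siNT means 3.99 against 16.6 CPM.

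RefSeq promoters of 300 bases were at hand for 36 of the 53 members and 185 of the other induced genes. TATAAA was present on either strand in 10 of 36 (27.8%), in 21.1% of the other induced genes and in 12% of 27305 promoters. GGAATG was present in 7 (19.4%), compared with 11.9% and 14.0%, and CACGTG, the E-box, in 4 (11.1%), compared with 7.03% and 7.43%. TGANTCA was present in 2, PRSS3 and IVL (5.56%, compared with 10.3% and 7.76%). GGGNNTTCC, the string searched for NF-kB, was present in 2 (compared with 11.4% and 6.60%). CCGGAAG, the ETS motif, was present in 2 (compared with 3.24% and 10.7%), and TGTGGTT, the RUNX motif, in 1 (compared with 3.78% and 4.28%). Each search used 1 string, so sites with other letters or spacing, NF-kB sites included, were not counted. No member window held TGACGTCA (CRE) or TTGCGCAA (C/EBP), which 1.98% and 0.128% of all promoters hold. These shares are descriptions over few genes, and some of those genes are copies of each other. LCE2A, LCE2B and LCE2C are all among the members with TATAAA and those with GGAATG. LCE2A and LCE2B are among those with CACGTG. The LCE2B and LCE2C windows, 96.5% identical, were counted separately.

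Counts at repeats inside introns were read for the members as well, from rows the rule did not use but in the same libraries. In 47 members 7702 repeat loci, on either strand, lay within the gene and outside any annotated exon, and 1422 of them had a count. Their sum was 2.28 ± 0.841 CPM (SD, n = 5) in DMSO siNT, 8.48 ± 0.587 CPM (SD, n = 6) in 4OHT siNT and 5.72 ± 1.17 CPM (SD, n = 6) in siSMARCA4. The groups did not overlap, with 1.4 to 3.3, 7.6 to 9.14 and 3.86 to 7.10 CPM. The top 3 members held 31.4% of the 4OHT siNT counts. Poly(A) selection leaves little intronic RNA, and a locus in an unannotated exon cannot be told apart from one in an intron.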

How the data were processed

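RNA from 17 libraries was selected with poly(A), made into stranded paired-end libraries, trimmed with Cutadapt 4.7 and aligned to GRCh38 with HISAT2 2.2.1, per the labels and the methods of the study. The authors deposited estimated counts from TElocal, which shares reads with several alignments among genes and repeat loci, so values of near-identical copies are uncertain. Here 62700 of 62754 gene identifiers were matched to GENCODE 44. CPM used the sum of gene counts of each library, 38559660 to 67759411, and depth sets the precision of low genes. The deposited counts were whole numbers and were tested with edgeR 4.0.16 in R 4.3.3 (quasi-likelihood, TMM, filterByExpr with a minimum count of 10, Benjamini-Hochberg adjusted p under 0.05). The fits held 19473 genes for all libraries and 19588 and 19909 genes for the libraries of siRNA numbers 2 and 4. DESeq2 1.42.0, no filter, V or VM as a covariate, a replicate block and leaving out each library were alternatives. The fits were tested on simulated data. The members, gene lists, markers and tests were chosen with earlier results of these data known, and the role groups after the members were known. Genes are named in the text if they are members, lie next to a limit of the rule, or carry a check. The comparison of V with VM was added after the values were seen. Results for a few members are not reported here.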

Additional observations from a re-analysis of the deposited data

Results flagged for a closer look

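In DMSO siNT a library stood apart in 3 of the 108 groups examined, where chance marks about 1 in 20. IVL was at 0.130 CPM in DMSO siNT 2-2VM and at most 0.0203 CPM in the other 4. TTC9 was at 0.947 CPM in the same library and at most 0.175 CPM in the others. SMARCA4 was at 180 CPM in DMSO siNT 2-1V, where the next lowest was 212 CPM. Between the siRNA numbers, the knockdown changes of DUSP4 differed, with a log2 difference of -1.48 (SE 0.30, adjusted p = 0.030 by edgeR), and were deeper with number 2. DUSP4 was 1 of 53 members so called, compared with 1.04% of all genes. As given above, the call was lost on leaving out any 1 of several libraries, and number and tag partly coincide.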

How the results depend on the processing

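The rule chose 53 genes as reported, 31 with 0.5 CPM added to DMSO siNT, 93 in VM libraries only, 83 with siRNA number 2 only, and 47 to 67 when each library was left out. The 27 genes chosen with number 2 and called lower with number 4 became 44 with DESeq2, 50 without a filter, 57 with V or VM as a covariate, and 3 to 31 on leaving out libraries. With the tag number as a replicate block that count was 0. Libraries that share a tag number had correlations of -0.41 to 0.50 (median 0.065, 14 of 32 pairs over 0.1). For libraries of other tag numbers they were -0.52 to 0.57 (median -0.017, 22 of 64 pairs over 0.1). With values this wide, pairing by tag number was neither shown nor excluded. For libraries that share an siRNA number the median correlation was -0.048, against 0.068 for different numbers. The member whose knockdown change differed between the siRNA numbers became 8 with DESeq2, 18 without a filter, 3 with the covariate, and 0 to 9 on leaving out libraries. The 4 members that differed between non-targeting siRNAs became 12 without a filter and 0 to 6 on leaving out libraries. The causes were not tested. Leaving out libraries gave 73 to 82 and 52 to 76 for the other counts of the 83 genes (81 and 67), 30 to 41, 48 to 49 and 27 to 35 for those of the 51 (40, 49 and 33), 3 to 26 for the members higher in V, 2 to 6 for those lower in V in DMSO siNT, and 3683 to 5372 for the 4730 genes called on knockdown. The V comparison in DMSO siNT could not be fitted without 2-2VM. Depth limits genes near 1 CPM, 15 members being under 2 CPM.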
